A study of Mus musculus with 32 samples.

Results

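The comparison described here is between wild-type embryos of a pair of mouse backgrounds, in the dorsal telencephalon at E12.5 (E, embryonic day). Its members are the 7 libraries, of 32 in the series, that the labels give as wild-type E12.5 dorsal telencephalon. Of these, 3 came from C57BL/6 embryos (replicates 1, 3 and 4, sequencing batch 2) and 4 from embryos of a mixed FVBxBALB/c background (replicates 1 to 4, sequencing batch 1). The background and the sequencing batch divide the 7 libraries in the same way, so a difference between them is a difference of both, and their shares cannot be told apart.

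The series was built to ask what loss and gain of Kat6b, a gene for a histone acetyltransferase, do to RNA levels in the developing cortex. Kat6b knockout embryos and their wild-type controls were C57BL/6, while embryos with a Tg(Kat6b) transgene and their controls were on the mixed background, since transgenic mice did not survive on an inbred one. The wild types compared here carried neither the knockout nor the transgene, and no treatment is labelled. Each library was made from 1 embryo with a TruSeq RNA kit and read from both ends. The labels name C57BL/6 without its substrain, and for the mixed background they give neither the proportions of FVB and BALB/c nor the generation of crossing. C57BL/6 replicates 3 and 4 came from litter 592 and replicate 1 from litter 568, while no litter is given for the FVBxBALB/c embryos. The replicate numbers are only names.

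As background, the dorsal telencephalon is the part of the embryonic forebrain that becomes the cerebral cortex. At midgestation it is a sheet of dividing apical progenitors, kept from early differentiation by Notch signalling through the transcription factor Rbpj and Hes genes, with intermediate progenitors and the earliest neurons forming above them. Inbred mouse strains differ by many small and large sequence variants, which can switch a single gene on or off in one strain through its promoter, a deletion or a change of copy number. Strains also differ in processed pseudogenes, intron-less copies of messenger RNAs pasted back into the genome, and a read that lies in both a gene and its copy can be assigned to either or to none.

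To show what such a copy looks like to a read, stretches of 66 bases, the length of 1 read end, are printed for 3 gene and pseudogene pairs that recur below, from the GENCODE M21 transcripts of GRCm38, the assembly called mm10 in the submitters' notes. Each is the stretch with the most mismatches in the alignment of the pair, and capitals mark the mismatched bases.
Tdg, coding bases 1108 to 1173: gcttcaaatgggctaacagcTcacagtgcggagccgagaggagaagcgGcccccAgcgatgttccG
Gm9855, the aligned stretch: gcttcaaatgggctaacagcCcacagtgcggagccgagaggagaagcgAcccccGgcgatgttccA
Rpl29, coding bases 7 to 72: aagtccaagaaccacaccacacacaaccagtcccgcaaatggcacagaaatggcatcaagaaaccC
Gm8210, the aligned stretch: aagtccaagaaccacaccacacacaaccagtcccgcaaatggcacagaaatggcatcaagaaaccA
Atp6v0c, coding bases 46 to 111: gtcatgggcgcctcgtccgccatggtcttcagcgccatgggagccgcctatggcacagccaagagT
Atp6v0c-ps2, the aligned stretch: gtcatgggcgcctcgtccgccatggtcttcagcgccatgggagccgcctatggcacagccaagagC

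Tdg and Gm9855 differed at 9 of 1194 aligned bases, so 70.8% of the 66-base windows read the same in both. Rpl29 and Gm8210 differed at 2 of 422 aligned bases, with 63.0% of windows identical. Atp6v0c and Atp6v0c-ps2 differed at 1 of 465, with 83.5% of windows identical. These shares are of the aligned coding stretches only. Over the whole transcript, 50.5% of the windows of Tdg, 46.8% of Rpl29 and 29.9% of Atp6v0c were found at other loci. All 3 copies are annotated as processed pseudogenes. Tdg encodes thymine DNA glycosylase (GRCm38, chromosome 10, 82629814 to 82650799), and Gm9855 lies elsewhere on the same chromosome (42052558 to 42055453). Rpl29 lies on chromosome 9 and Gm8210 on chromosome 1 (43189052 to 43189773). Atp6v0c, for a membrane subunit of the vacuolar proton pump, lies on chromosome 17 (24163865 to 24169678) and its copy on chromosome 6 (37805975 to 37807107).

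The labels were checked first. Kat6b did not pass the test between the wild types. It stood at 197, 171 and 156 CPM, which are counts scaled to the library total, in the C57BL/6 libraries and at 167, 201, 199 and 162 CPM in the FVBxBALB/c libraries (log2 fold change -0.06, standard error, SE, 0.13, adjusted p 0.863). Every library expressed the 22 apical progenitor genes of a list for this tissue, with summed CPM of 5260 to 6230 in C57BL/6 and 5330 to 6150 in FVBxBALB/c. Total counts over named genes ran from 17978872 to 42960413 in C57BL/6 and from 15711202 to 49508669 in FVBxBALB/c. Among the 7 embryos, C57BL/6 replicate 4 had Xist at 1102 CPM and 4 Y-linked genes at a summed 0.81 CPM, while the other 6 libraries had Xist at 0.182 to 1.10 CPM and the Y-linked sum at 212.5 to 357 CPM. The first principal component of the 7 libraries (40% of the variance) placed C57BL/6 replicate 1 at -47.4 and FVBxBALB/c replicate 4 at -43.0, away from the remainder at -13.1 to 49.8. The second (29.1%) divided the backgrounds, with C57BL/6 at 3.70 to 43.7 and FVBxBALB/c at -41.9 to -6.48. FVBxBALB/c replicate 4 also had the highest summed erythroid markers, at 10100 CPM against 2250 to 4110 in the other libraries, and the highest meningeal and mesenchymal markers, at 2190 CPM against 391 to 1500. The part of these library differences in the results was not tested other than by leaving libraries out.

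Among 15849 genes tested with edgeR's quasi-likelihood test, 203 (1.28%) differed at a Benjamini-Hochberg adjusted p below 0.05, of which 122 (0.77%) were higher in C57BL/6 and 81 (0.511%) lower. The change was at least 2-fold for 140 (0.883%), 82 higher (0.517%) and 58 lower (0.366%). The CPM values did not overlap between the groups for 2357 genes (14.9%). The median log2 fold change over all tested genes was -0.01. The count of calls moved with single libraries, from 62 without C57BL/6 replicate 4 to 1266 without FVBxBALB/c replicate 4, and 59 genes were called in each of the 7 fits with 1 library left out. Without C57BL/6 replicate 1 and FVBxBALB/c replicate 4 together, a choice made after seeing the data, 3841 genes were called.

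**Figure D1:**
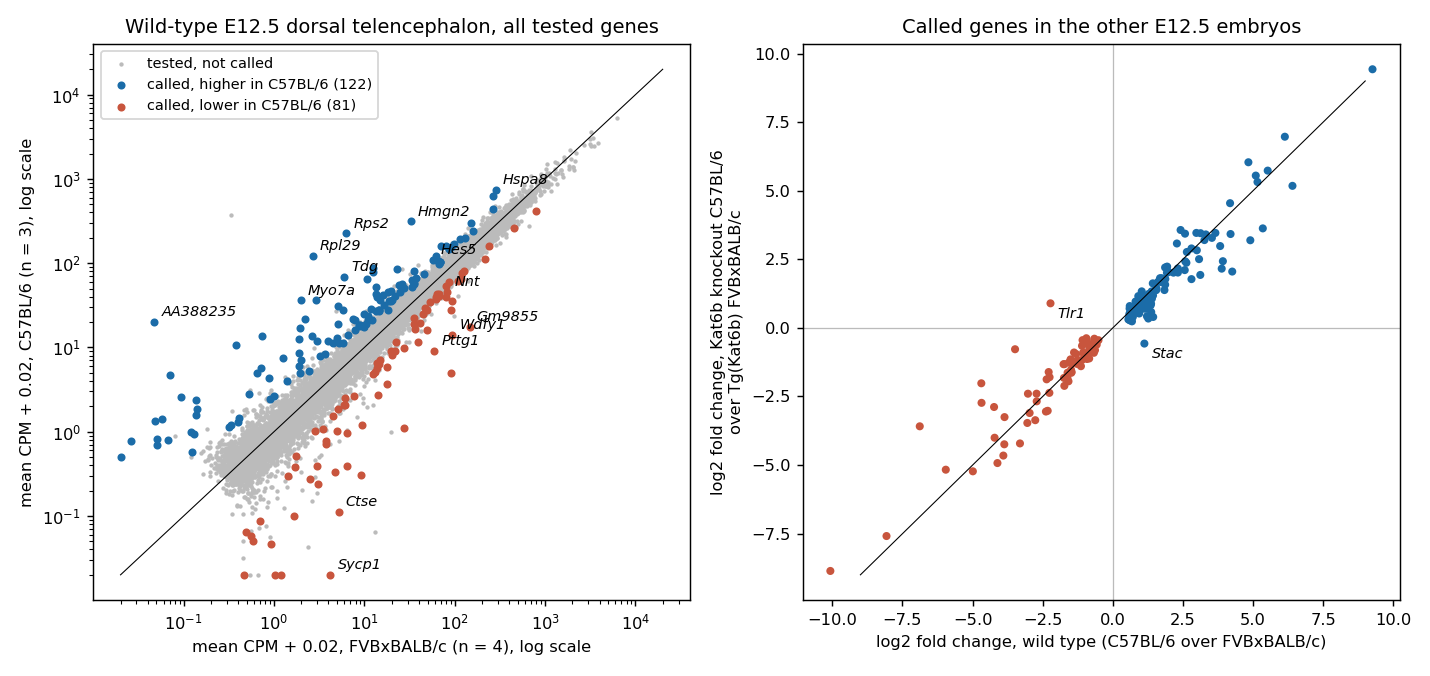
Left: mean CPM of each tested gene in FVBxBALB/c (horizontal, 4 embryos) and C57BL/6 (vertical, 3 embryos), both on log scales after adding 0.02, with the 122 genes called higher in C57BL/6 in blue and the 81 called lower in red, around the diagonal of equal levels. Right: the log2 fold change of called genes in the wild types against the same background contrast in the other E12.5 embryos, where 195 of 197 lie on the same side of zero and Tlr1 and Stac do not.

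Some genes were close to off in C57BL/6 and on in FVBxBALB/c. Sycp1, which encodes a structural protein of the synaptonemal complex of meiosis, had 0 counts over the C57BL/6 libraries and 470 over the FVBxBALB/c libraries, where it stood at 6.03, 6.33, 3.64 and 0.67 CPM. Set against a floor of 3 counts over the C57BL/6 group, it was at least 104-fold lower there, and its log2 fold change had an adjusted p of 0.0393. The groups did not overlap, and FVBxBALB/c replicate 4 was far below its group mates.

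A pair of related interferon-inducible genes for DNA-binding proteins went in opposite directions. Ifi202b had 0 counts in C57BL/6 and 145 in FVBxBALB/c, at 0.65, 1.42, 0.75 and 1.24 CPM, at least 32.1-fold lower in C57BL/6 (adjusted p 0.0119). Aim2, a cytosolic DNA sensor, was higher in C57BL/6, at 18.9, 20.5 and 18.2 CPM against 6.03, 4.51, 5.28 and 4.42 CPM (log2 fold change 1.93, SE 0.17, adjusted p 0.000958). Neither gene shared a 66-base window with another locus. Of 25 tested genes of an interferon and antiviral list, 2 were called, Ifi202b lower and Trim12a higher, 8 had a fold change above 0, and the list's median log2 fold change was -0.10.

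Ctse, for the aspartic protease cathepsin E, was at 0.07, 0.05 and 0.16 CPM in C57BL/6 and at 4.02, 3.40, 4.34 and 8.90 CPM in FVBxBALB/c (log2 fold change -5.96, SE 0.59, adjusted p 0.00181). AI506816 fell from 77.9, 103, 84.2 and 102 CPM in FVBxBALB/c to 5.85, 4.90 and 3.99 CPM in C57BL/6 (log2 fold change -4.21, SE 0.19, adjusted p 1.37e-05). Bspry was at 0.07 to 0.38 CPM in C57BL/6 and 2.63 to 3.56 CPM in FVBxBALB/c. Gm8221 and Serpina3h also had 0 counts in C57BL/6, against 170 and 64 counts in FVBxBALB/c, at least 37.6-fold and 14.2-fold lower. Serpina3h belongs to a cluster of closely related serine protease inhibitor genes, so its reads may be shared with its relatives.

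In the other direction, AA388235 was at 21.9, 22.1 and 16.5 CPM in C57BL/6 and had 4 counts over the 4 FVBxBALB/c libraries, at 0 to 0.07 CPM (log2 fold change 9.26, SE 0.46, adjusted p 2.83e-05). Myo7a, which encodes the unconventional myosin VIIa of inner ear hair cells and retina, was at 36.6, 37.5 and 34.3 CPM in C57BL/6 and 1.69, 1.25, 1.54 and 3.33 CPM in FVBxBALB/c (log2 fold change 4.18, SE 0.32, adjusted p 0.000398). The C57BL/6 group was narrow, FVBxBALB/c replicate 4 was the highest of its group, and the levels of the groups lay far apart. Rec8, for the meiotic subunit of cohesin, was at 7.72, 12.4 and 12.2 CPM against 0.06, 0.74, 0.51 and 0.12 CPM (log2 fold change 4.83, SE 0.59, adjusted p 0.00577).

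Hfm1, a DNA helicase of meiotic crossing over, was higher in C57BL/6 too, at 12.1 to 13.1 CPM against 1.34 to 2.66 CPM (log2 fold change 2.80, adjusted p 0.00146). Aim2 and Hfm1, like several further genes below, were named after their values were seen. Trim71, an RNA-binding ubiquitin ligase of the let-7 pathway, was at 4.26 to 4.40 CPM in C57BL/6 and 0.81 to 0.93 CPM in FVBxBALB/c (log2 fold change 2.32, adjusted p 0.00128). Fgl1 had 43 counts in C57BL/6 and 0 in FVBxBALB/c, at least 21.6-fold higher. Efcab7, an EF-hand protein of the ciliary Hedgehog pathway, was lower in C57BL/6, at 5.49 to 6.02 CPM against 16.1 to 19.3 CPM (log2 fold change -1.62, adjusted p 0.00125). Hfm1, Trim71, Fgl1 and Efcab7 shared no 66-base window with another locus.

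**Figure D2:**
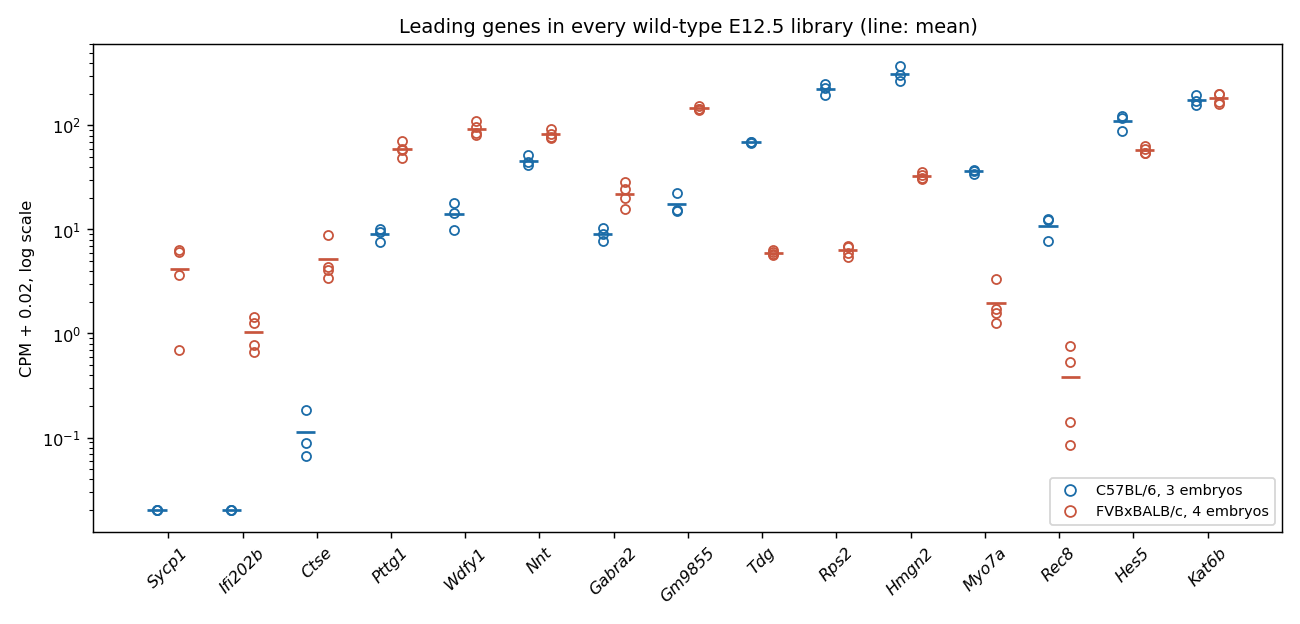
CPM plus 0.02 on a log scale for 15 genes in each of the 7 libraries, C57BL/6 in blue and FVBxBALB/c in red, with a line at each group mean. Kat6b overlaps between the groups. For the other 14 genes, all called and some chosen partly for it, the groups do not overlap.

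A list of genes known to differ between inbred strains was examined beside these. Of its 13 tested members, 4 were called and all 4 were lower in C57BL/6 (30.8% against 1.28% of all genes). The list was written with earlier results of the series known, so this share is a description and not independent support. Nnt, the mitochondrial transhydrogenase that is deleted in part in the C57BL/6J substrain, was at 51.8, 44.6 and 41.6 CPM in C57BL/6 and 77.2, 75.3, 83.3 and 91.7 CPM in FVBxBALB/c (log2 fold change -0.83, SE 0.12, adjusted p 0.0141). Gabra2, a GABA receptor subunit with a known intronic variant in C57BL/6J, was at 9.07, 10.4 and 7.77 CPM against 28.4, 24.2, 19.9 and 15.7 CPM (log2 fold change -1.27, SE 0.22, adjusted p 0.0332). Both were reduced rather than absent in counts over the whole gene, and counts per gene do not show which exons were read.

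The remaining called members of that list had larger differences. Pttg1, which encodes securin, the inhibitor of separase, was at 10.2, 7.53 and 9.50 CPM in C57BL/6 against 48.7, 59.4, 57.8 and 71.3 CPM (log2 fold change -2.71, SE 0.18, adjusted p 0.000159). Wdfy1, an endosomal adaptor protein, was at 9.83, 18.0 and 14.4 CPM against 110, 84.5, 95.8 and 81.6 CPM (log2 fold change -2.72, SE 0.22, adjusted p 0.000642). Pttg1 and Wdfy1 share no 66-base window with other loci and were called in each fit with 1 library left out, while Nnt and Gabra2 were not. Over the 13, the median log2 fold change was -0.68 and 1 member, not called, was above 0. Of the others that were not called, Glo1, Ide, Alad, Hc, Apobec3, Fv1, Prkdc and Ahr had log2 fold changes from -0.83 for Apobec3 to -0.03 for Ide, with adjusted p values of 0.145 or more. Glo1, whose copy number is known to differ among mice, stood at 50.6 to 57.7 CPM in C57BL/6 and 52.1 to 122 CPM in FVBxBALB/c.

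Genes with near-identical copies were examined next. For each gene, the share of its transcript's 66-base windows found word for word in the transcripts of other loci was computed. Of the 12427 tested genes with no such window, 102 were called (0.821%), 56 higher and 46 lower in C57BL/6. Of 2054 genes with up to 10% of windows shared, 30 were called (1.46%), 12 higher and 18 lower in C57BL/6. Of 794 genes with over 10 and up to 50% shared, 46 were called (5.79%), 37 of them higher in C57BL/6, and of 344 with over 50% shared, 21 were called (6.10%), 14 of them higher. Calls were more frequent among genes with copies, and higher calls outnumbered lower ones where over 10% of windows were shared. By annotated kind, 17 of 384 pseudogenes (4.43%) were called against 160 of 14373 protein-coding genes (1.11%).

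Tdg and its copies showed the pattern in full. Tdg was at 69.9, 67.8 and 70.0 CPM in C57BL/6 and at 5.77, 6.06, 6.35 and 5.70 CPM in FVBxBALB/c (log2 fold change 3.53, SE 0.11, adjusted p 8.21e-07). Gm9855, the copy printed above, went the opposite way, from 143, 145, 140 and 154 CPM in FVBxBALB/c to 22.5, 15 and 15.3 CPM in C57BL/6 (log2 fold change -3.05, SE 0.17, adjusted p 4.41e-05). Tdg-ps rose with Tdg, from 1.62 to 2.31 CPM in FVBxBALB/c to 6.69 to 10.5 CPM in C57BL/6 (log2 fold change 2.16, adjusted p 0.0033). The mean CPM of the 3 genes summed to 95.4 in C57BL/6 and 153.5 in FVBxBALB/c, a log2 ratio of -0.69, opposite in sign to that of Tdg alone.

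Rpl29 and Gm8210 crossed in the same manner. Rpl29, a protein of the large ribosomal subunit, was at 113, 115 and 138 CPM in C57BL/6 and 2.53, 2.86, 2.29 and 2.90 CPM in FVBxBALB/c (log2 fold change 5.52, SE 0.14, adjusted p 7.00e-07). Gm8210 was at 2.87, 2.42 and 2.92 CPM in C57BL/6 and 11.7, 13.4, 11.9 and 19.9 CPM in FVBxBALB/c (log2 fold change -2.38, SE 0.25, adjusted p 0.00246). The sum with its 3 tested partners still differed, at 127.9 against 17.2 CPM. In all, 14 other loci shared at least 10% of the Rpl29 windows.

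For Atp6v0c, the copy carried about the same reads in both backgrounds. Atp6v0c was at 24.6, 45.7 and 40.3 CPM in C57BL/6 and 2.14, 2.83, 2.99 and 3.55 CPM in FVBxBALB/c (log2 fold change 3.66, SE 0.25, adjusted p 0.000225), while Atp6v0c-ps2 was at 41.8 ± 3.47 CPM (SD, n = 3) and 45.1 ± 2.89 CPM (SD, n = 4; log2 fold change -0.11, SE 0.11, adjusted p 0.663). The copy holds 334 of the 400 coding windows compared, so a read from these could be placed at either locus. Over the whole Atp6v0c transcript, 29.9% of windows were shared, and the remainder were found at no other locus.

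Ublcp1, a phosphatase of the nuclear proteasome, and its copy Gm12663 were called in opposite directions: 27.5, 28.8 and 27.1 CPM against 14.3, 13.7, 14.9 and 15 CPM for Ublcp1, and 33.9, 28.6 and 26.4 CPM against 47.3, 49.6, 43.0 and 49.4 CPM for Gm12663 (adjusted p 0.00516 and 0.0391). Their sum was 57.5 CPM in C57BL/6 and 61.8 CPM in FVBxBALB/c. Eno1b, a copy of the enolase gene Eno1, fell in C57BL/6 from 93.6 ± 25.7 CPM (SD, n = 4) to 35.8 ± 4.54 CPM (SD, n = 3; log2 fold change -1.39, adjusted p 0.0197), Eno1 itself was at 134 against 79.1 CPM (adjusted p 0.153), and their sum was 169.9 against 172.7 CPM.

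Over all 67 called genes with more than 10% of windows shared, 51 were higher in C57BL/6. A partner sharing at least 10% of the windows was among the tested genes for 39 of them. Of these 39, 9 had a partner called in the opposite direction, among them Tdg, Rpl29, Ublcp1, Gm12663 and Gm6594, which shares windows with Hmgn2, and 5 had a partner called in the same direction. When mean CPM was summed over a gene and its tested partners, 15 of the 39 sums differed by less than 1.5-fold between the backgrounds. A sum follows its most abundant member, and called genes of 1 family share the same sum, so this count does not show that reads were exchanged. For the other 28, including Rps18, Kpna2, Ahcy, Hspa8 and Acp1, no such partner was tested and no sum could be formed.

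**Figure D3:**
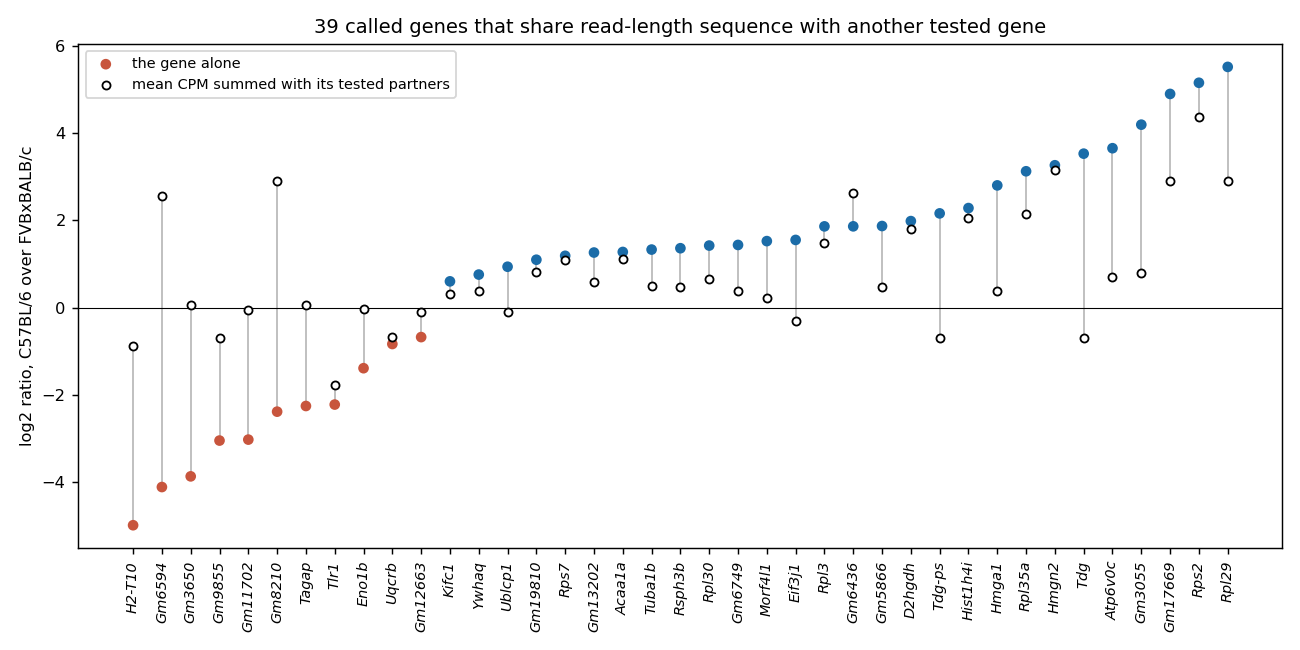
Log2 ratio of C57BL/6 over FVBxBALB/c for 39 called genes that share read-length sequence with another tested gene: filled points show the fitted log2 fold change of the gene alone (blue higher, red lower), open points the ratio of mean CPM after adding its tested partners. The sums of 15 genes lie within 1.5-fold of equality, and for Tdg, Tdg-ps, Gm6594 and Gm8210 among others the sum lies on the other side of zero.

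Ribosomal protein genes were the abundant family most often called. Of 84 tested, 9 were called (10.7% against 1.28% of all genes), all 9 higher in C57BL/6: Rpl29, Rps2, Rps18, Rpl3, Rpl35a, Rps4l, Rpl30, Rps7 and Rplp0. Rps2 was at 231, 194 and 252 CPM in C57BL/6 and 5.96, 6.97, 5.46 and 6.83 CPM in FVBxBALB/c (log2 fold change 5.16, SE 0.15, adjusted p 7.00e-07), and 24 other loci shared at least 10% of its windows. Rplp0, the stalk protein, was at 654, 542 and 667 CPM against 184, 207, 366 and 310 CPM (log2 fold change 1.22, SE 0.23, adjusted p 0.0471). Of all 84 fold changes, 63 were above 0, and the median was 0.27 on the log2 scale. Of the 84, 73 shared more than 10% of their windows with other loci, and the median was 0.18 for the 1 gene without shared windows, 0.26 for 10 with up to 10%, 0.30 for 46 with up to 50% and 0.28 for 27 with more. Without FVBxBALB/c replicate 4, 25 were called, again all higher, in a fit that called 1266 of all 15721 genes.

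Other abundant genes that share windows were called higher in C57BL/6. Hmgn2, a nucleosome-binding high-mobility-group protein, was at 371, 266 and 304 CPM against 31.4, 33.1, 35.7 and 30.2 CPM (log2 fold change 3.27, SE 0.14, adjusted p 1.02e-05). Kpna2, an importin, was at 49.8, 53.6 and 51.8 CPM against 12.8, 15.3, 12.4 and 13.4 CPM. Hspa8, the constitutive Hsc70 chaperone, was at 898, 671 and 651 CPM against 243, 262, 252 and 376 CPM (log2 fold change 1.38, SE 0.18, adjusted p 0.00942), and 70.1% of its windows were shared.

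Cell type and pathway lists were read next, each as a count beside the background of 1.28%. Alternative fits had other backgrounds. Of all 15849 genes, DESeq2 called 860 and limma-voom 187. Without C57BL/6 replicate 1, edgeR called 372 of 16354, and without FVBxBALB/c replicate 4, 1266 of 15721. For list counts at an unadjusted p below 0.05, the share over all genes is not given here, so they are descriptions only. Of 22 apical progenitor genes, 1 was called. Hes5, the Notch target that holds neural progenitors undifferentiated, was higher in C57BL/6, at 88.8, 122 and 118 CPM against 54.0, 54.4, 59.9 and 63.9 CPM (log2 fold change 0.92, SE 0.13, adjusted p 0.0141), and no window of it is shared. Rbpj, the DNA-binding partner of the Notch intracellular domain, was also higher, at 123, 128 and 115 CPM against 58.5, 61.0, 63.0 and 64.8 CPM (log2 fold change 0.98, SE 0.09, adjusted p 0.00128), with 22.0% of its windows shared. Hes1 (0.18), Notch1 (0.10), Notch2 (-0.06), Pax6 (-0.10), Sox2 (-0.08) and Vim (-0.19) had log2 fold changes near 0 that did not pass the test, and the list's median was 0.004.

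A further 4 genes without a shared window, picked after their values were seen, were called higher in C57BL/6. Ntrk2, the BDNF receptor, was at 117, 96.6 and 97.2 CPM against 70.2, 63.4, 71.3 and 67.6 CPM (log2 fold change 0.61, SE 0.11, adjusted p 0.0327). Fzd8, a Wnt receptor, was at 113, 107 and 96.9 CPM against 52.6, 74.0, 66.8 and 69.6 CPM (log2 fold change 0.68, SE 0.13, adjusted p 0.0469). Jund, an AP-1 transcription factor, was at 241, 321 and 336 CPM against 137, 129, 147 and 194 CPM (log2 fold change 0.98, adjusted p 0.0341). Igsf8, an immunoglobulin superfamily protein of the cell surface, was at 158 ± 24 CPM (SD, n = 3) against 80.8 ± 2.85 CPM (SD, n = 4; log2 fold change 0.97, adjusted p 0.00577). In each the groups did not overlap, as for 14.9% of all tested genes.

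None of 13 tested intermediate progenitor genes was called, though 12 of 13 lay above 0 with a median of 0.24 on the log2 scale. Insm1, a zinc-finger factor of basal progenitors, was at 154 CPM in C57BL/6 and 111 CPM in FVBxBALB/c on average (log2 fold change 0.47, SE 0.14, adjusted p 0.165). Eomes, the marker of the type, was at 172 and 151 CPM (0.18, SE 0.14, adjusted p 0.570). Summed levels were 1160 to 1380 CPM in C57BL/6 and 1020 to 1120 CPM in FVBxBALB/c, and did not overlap. At an unadjusted p below 0.05 there were 4 of the 13 by edgeR, and DESeq2 and limma-voom called 0. Without C57BL/6 replicate 1, 2 of the 13 were called, Insm1 and Hes6, beside 372 of all 16354 genes. In bulk tissue, more cells of a type and more RNA per cell cannot be told apart.

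No member was called in the lists for deep-layer (13 tested), upper-layer (9), pan-neuronal (19) and Cajal-Retzius (11) neurons, nor for cortical patterning (21), mitosis (20) and DNA replication (20). Their medians lay between -0.25 and 0.13 on the log2 scale. At an unadjusted p below 0.05, edgeR gave 1 to 3 genes in each list, while limma-voom called 0 and DESeq2 called 1 in each of the upper-layer, pan-neuronal and patterning lists. Without FVBxBALB/c replicate 4, where 1266 of all 15721 genes were called, calls appeared in some of these lists. Elavl4, Map2 and Nefm of the pan-neuronal list were called lower in C57BL/6 and Dmrt3, Dmrta2 and Emx1 of the patterning list higher. Pan-neuronal sums were lowest in C57BL/6 replicate 1 (3820 CPM) and FVBxBALB/c replicate 4 (3850 CPM), the libraries at one end of the first component.

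Lists for neighbouring tissue were likewise without calls: ventral telencephalon (19 tested), cortical hem and choroid plexus (17), caudal brain (13), meninges and mesenchyme (17), endothelium and pericytes (15), microglia and macrophages (14), erythroid cells (12), skeletal muscle (4) and surface epithelium (5). Their sums overlapped between the backgrounds. By edgeR, 0 to 3 genes of each had an unadjusted p below 0.05. DESeq2 called 2 of the microglial, 2 of the erythroid, 1 of the hem and 1 of the endothelial genes, and limma-voom called 0. Without FVBxBALB/c replicate 4, edgeR called 4 hem genes, all higher in C57BL/6 (Foxj1, Msx1, Wnt2b and Wnt3a), 2 microglial and 2 erythroid genes. That fit called 1266 of all 15721 genes. The meningeal median was -0.16, but -0.78 without C57BL/6 replicate 1 and 0.25 without FVBxBALB/c replicate 4. Caudal brain markers had a wide range among FVBxBALB/c embryos, where they summed to 174 CPM in replicate 4 and 915 CPM in replicate 1, against 381 to 454 CPM in C57BL/6. Tcf7l2, a factor strong in the thalamus, followed that range at 503, 187, 260 and 61.3 CPM in FVBxBALB/c, against 168, 205 and 213 CPM in C57BL/6.

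**Figure D4:**
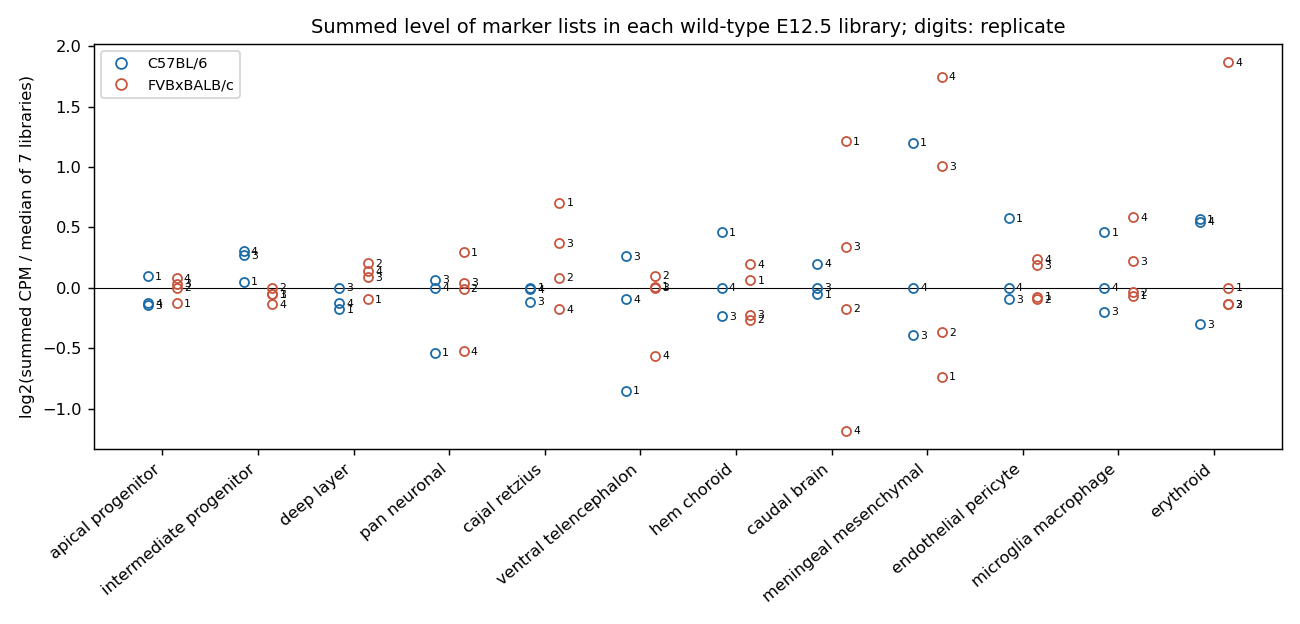
Log2 of the summed CPM of 12 marker lists in each library over the median of the 7 libraries, C57BL/6 in blue and FVBxBALB/c in red, with the replicate number beside each point. The intermediate progenitor sums do not overlap between backgrounds, and FVBxBALB/c replicate 4 is highest for meningeal and erythroid markers and lowest for caudal brain markers.

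The clustered beta protocadherins, cell-surface adhesion proteins that give neurons individual identities, were tested as a list. Of 21 tested, 4 were called, all lower in C57BL/6 (19% against 1.28%), 2 lay above 0, and the median log2 fold change was -0.98. Pcdhb20 was at 1.97, 2.72 and 3.29 CPM against 9.07, 5.89, 8.62 and 6.63 CPM (log2 fold change -1.51, SE 0.26, adjusted p 0.0332), and Pcdhb17 was at 3.63, 6.02 and 4.91 CPM against 16.6, 9.77, 13.1 and 10.6 CPM (-1.36, SE 0.26, adjusted p 0.0468). Pcdhb18 (-1.57) and Pcdhb22 (-1.28) were the other called members. The sum over the cluster was 31.6 to 46.0 CPM in C57BL/6 and 66.8 to 104 CPM in FVBxBALB/c. No member was called without C57BL/6 replicate 1, and 8 were called, all lower, without FVBxBALB/c replicate 4. Of all genes, these fits called 372 of 16354 and 1266 of 15721.

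The alpha and gamma protocadherins were read as a separate list, with 0 of 33 called by edgeR and limma-voom. DESeq2 called 5, beside 860 of all 15849 genes. By edgeR, 7 had an unadjusted p below 0.05, 20 lay above 0 and the median was 0.10. At E15.5 the called beta members had smaller log2 fold changes between the wild types, of -0.68 for Pcdhb20, -0.66 for Pcdhb17, -0.53 for Pcdhb18 and -0.27 for Pcdhb22. The difference between the ages was not called for any of the 4, and Pcdhb21, chosen for a small p of that difference, had -1.54 at E12.5 and 0.08 at E15.5 (interaction adjusted p 0.630).

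Metabolic and stress genes differed one by one. Slc7a11, the cystine transporter and an ATF4 target, was lower in C57BL/6, at 28.5, 28.0 and 26.3 CPM against 126, 97.6, 50.2 and 92.3 CPM (log2 fold change -1.73, SE 0.27, adjusted p 0.0216), whereas Phgdh, for serine synthesis and of the same list, was higher, at 54.7, 54.4 and 66.1 CPM against 29.1, 34.1, 38.3 and 40 CPM (0.72, SE 0.14, adjusted p 0.0497). These were the 2 called of 17 in that list. Phgdh shared 53.1% of its windows with other loci, and it did not pass under either of the other scalings or limma-voom. Gsta4, a glutathione transferase for lipid peroxidation products, was at 19.6, 11.8 and 17.1 CPM against 39.6, 47.6, 38.9 and 70.8 CPM (log2 fold change -1.61, SE 0.26, adjusted p 0.0237) and was the 1 called of 18. Insig1, the sterol sensor, was the 1 called of 20 cholesterol synthesis genes, at 90.7, 108 and 113 CPM against 73.5, 69.5, 65.6 and 66.5 CPM (0.59, SE 0.11, adjusted p 0.0372).

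No gene was called among 15 immediate-early genes, 20 of glycolysis and hypoxia and 11 of the Kat6b complex, with medians of 0.25, -0.03 and -0.05. By edgeR 2, 2 and 1 of these had an unadjusted p below 0.05, and DESeq2 called 0, 1 and 0 and limma-voom 0 of each.

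In the mitochondrion, the log2 fold changes of all 13 genes of the mitochondrial genome were negative (median -0.53), and ND6 alone was called, at 332, 476 and 425 CPM against 936, 842, 651 and 735 CPM (-0.94, SE 0.17, adjusted p 0.0373). ND6 is encoded on the opposite strand to most of that genome, and the counting is not stated to use strand. Among 94 nuclear respiratory chain genes, 74 lay above 0 (median 0.18) and 1 was called, Uqcrb, which was lower at 21.1, 26.7 and 26.9 CPM against 44.3, 40.4, 42.1 and 50.6 CPM. Histone cluster genes had a median of 0.55 with 1 of 39 called, Hist1h4i, which had 24.1 to 30.7 CPM in C57BL/6 and 2.66 to 9.94 CPM in FVBxBALB/c. Both Uqcrb and Hist1h4i shared windows with other loci, 34.3% and 24.8% of them.

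Gene length moved with these values. When tested genes were divided by length into 4 classes of equal size, the median log2 fold change was 0.11 in the shortest class (up to 1750 bases), then 0.03 and -0.02, and -0.12 in the longest (4267 bases and over). The share called was 1.99%, 1.49%, 1.11% and 0.53%. The part of length in the medians of the ribosomal, histone and respiratory lists was not tested.

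Of 371 tested zinc-finger genes of the Zfp series, 6 were called (1.62%), 3 higher and 3 lower, while 131 had a fold change above 0 and the median was -0.11 (7653 of 15849 and -0.01 over all genes). Without FVBxBALB/c replicate 4, 10 were called higher and 22 lower. That fit called 1266 of all 15721 genes tested, 720 higher and 546 lower. Zfp33b was at 18.3, 11.6 and 11 CPM in C57BL/6 against 0.65, 0.94, 0.77 and 0.49 CPM (log2 fold change 4.26, SE 0.30, adjusted p 0.000272), while Zfp868 was lower at 44.8, 37.6 and 37.0 CPM against 95.9, 91.7, 73.7 and 61.8 CPM (-1.02, SE 0.17, adjusted p 0.0265). Called genes were spread over the genome, from 0.354% of tested genes on chromosome X to 2.77% on chromosomes 12 and 18. Of 191 called genes with a position, 14 (7.33%) had a called neighbour among the tested genes, in 8 of them with a change in the same direction, against 2.35% of the 15344 genes that were not called. Those neighbours included Tdg with 1190007I07Rik, 2610507I01Rik with Mrpl55, H2-T10 with Gm8909 and Pcdhb17 with Pcdhb18.

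The same contrast of backgrounds was then read in embryos that were not used so far. In the other E12.5 embryos, 3 Kat6b knockouts on C57BL/6 were set against 4 Tg(Kat6b) embryos on FVBxBALB/c, so genotype differs there as well as background and batch, and the knockouts were litter mates of the wild types (litters 568 and 592). Of the 203 genes called in the wild types, 197 were tested there, 195 changed in the same direction, and 169 were themselves called, beside 13.6% of all 15728 genes tested. The median log2 fold change of the genes called higher in the wild types was 1.34 there and 1.12 in the other embryos, and of those called lower -1.49 and -1.26. Stac, an adaptor protein with an SH3 domain, was higher in C57BL/6 wild types (5.18 to 5.24 against 1.99 to 2.88 CPM, log2 fold change 1.13, adjusted p 0.0497) and had -0.57 in the other embryos (adjusted p 0.112). Tlr1, a Toll-like receptor, had -2.22 (adjusted p 0.0469) and 0.90 (adjusted p 0.279).

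At E15.5, 5 C57BL/6 and 4 FVBxBALB/c wild-type cortices gave the same comparison, in the same batches. The file of C57BL/6 replicate 5 has a column name for an E12.5 replicate 2, so results are given with and without it. Of the 203 genes, 200 were tested there, 200 had the same direction and 185 were called, beside 20.4% of all 15941 tested, and without replicate 5 the numbers were 199, 199 and 176. No gene passed the test of the difference between the ages (0 of 15941, with 824, or 5.17%, at an unadjusted p below 0.05). DESeq2 called 9, limma-voom 0 and an edgeR fit over all 32 libraries 5. Tdg (3.53 at E12.5 and 3.54 at E15.5), Pttg1 (-2.71 and -2.74), Nnt (-0.83 and -0.87) and Samd8 (-0.84 and -0.98) had like log2 fold changes at both ages.

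AA388235 was among the called genes whose levels differed widely between FVBxBALB/c cortices at E15.5. It stood at 26.8 to 31.4 CPM in all 5 C57BL/6 cortices at E15.5, while the FVBxBALB/c cortices had 19.5, 15.1, 0.14 and 0.20 CPM, so 2 of 4 were between 15 and 20 CPM and the other 2 near 0. At E12.5 all 4 wild-type and all 4 Tg(Kat6b) FVBxBALB/c libraries were at 0.07 CPM or lower. The interaction with age was 7.48 on the log2 scale and did not pass (adjusted p 0.630). Other called genes were uneven among the FVBxBALB/c wild types at E15.5, such as Rps18, at 43.1, 35.9, 8.51 and 6.00 CPM against 48.3 to 73.7 CPM in C57BL/6. Zfp33b was at 7.73, 0.69, 9.21 and 0.40 CPM against 13.1 to 17.1 CPM, and H2-T10 at 0.59, 0.88, 25.2 and 25.6 CPM against 0.08 to 0.41 CPM.

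The spread of RNA levels among embryos of the mixed background was examined next, without genotypes at any locus. A gene was counted as variable when its mean CPM was 5 or more, its log2 CPM ranged over 1.5 or more among the 4 FVBxBALB/c wild types and under 0.6 among the 3 C57BL/6 wild types. Of 11742 genes, 95 met this and 13 met the reverse, and 4 embryos have a wider expected range than 3. These genes were chosen on their range, which is thus a description. FVBxBALB/c replicate 4 was the lowest of its group for 61 of the 95 and replicate 1 the highest for 55. Without replicate 4, 17 genes met the rule, and without replicate 1, 47. Of the 95, 26 (27.4%, against 2.54% of all 11742) also ranged over 1.5 or more among the Tg(Kat6b) embryos, which the rule did not use. Among the knockouts, 29 (30.5%) stayed under 0.6, against 84.6% of all, so most of the 95 were not narrow in C57BL/6 of the other genotype. Both held for 9 (9.47%, against 0.358% of all).

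Nr1h5, which encodes a nuclear receptor of the farnesoid X receptor group, was the clearest. On a scaling common to all 32 libraries, it was at 14.6, 16.6, 20 and 0.02 CPM in the FVBxBALB/c wild types, at 18.2, 26.3, 0.07 and 26.5 CPM in the Tg(Kat6b) embryos, and at 0.03 to 0.08 CPM in all 6 C57BL/6 embryos of that age. Thus 1 of 4 embryos in each E12.5 FVBxBALB/c group was at the C57BL/6 level. The same embryos, wild-type replicate 4 and Tg(Kat6b) replicate 3, were apart for a pair of genes on the same chromosome. 1500004A13Rik was at 7.06, 6.20, 5.27 and 0.06 CPM and at 7.04, 7.36, 0.11 and 7.45 CPM, against 22.7 to 32.2 CPM in C57BL/6. 5830417I10Rik was at 24.9, 26.8, 26.5 and 4.61 CPM and at 29.5, 45.7, 4.94 and 43.9 CPM, against 48.3 to 58.3 CPM in C57BL/6. At E15.5 no FVBxBALB/c cortex, wild-type or Tg(Kat6b), stood apart in this way. Nr1h5 was low in all of them, at 0.198 to 2.12 CPM, and 1500004A13Rik was at 4.64 to 11.2 CPM.

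On chromosome 3 (GRCm38), Nr1h5 lies at 102939658 to 102964291, and 1500004A13Rik (88805289 to 88832547) and 5830417I10Rik (88777057 to 88829371) overlap each other, so without strand their reads cannot be told apart. Sycp1, lowest in the same wild-type replicate 4, lies next to Nr1h5, at 102818499 to 102936100. Wild-type replicate 4 also stood apart in its marker sums, and their part in these values was not tested.

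A pair of histocompatibility genes on chromosome 17, H2-T10 and H2-D1, had another order of embryos. Of 19 tested H2 genes, edgeR called H2-T10 alone (median log2 fold change of the 19, -0.43), with 8 at an unadjusted p below 0.05. DESeq2 called 7, beside 860 of all 15849 genes, and limma-voom 0. Without FVBxBALB/c replicate 4, edgeR called 5 of 16 tested, beside 1266 of all 15721 genes, and without C57BL/6 replicate 1 it called 0. H2-T10 was at 16.1, 1.57, 6.94 and 11.5 CPM in the FVBxBALB/c wild types and 17.1, 0.45, 0.42 and 11.2 CPM in the Tg(Kat6b) embryos, against 0.10 to 0.32 CPM in C57BL/6. H2-D1 was at 28.4, 3.69, 13.6 and 14.9 CPM and at 27.2, 2.55, 3.71 and 16 CPM, against 13 to 16.6 CPM in C57BL/6. Both genes were highest in replicate 1 of each group, lowest in wild-type replicate 2, and low in Tg(Kat6b) replicates 2 and 3. H2 genes are polymorphic and similar to one another, and H2-T10 shares 28.7% of its windows, so the reads of one may be counted at another.

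Wipi1, an autophagy protein, was at 0 in FVBxBALB/c wild-type replicate 1 and at 9.95, 6.62 and 15.4 CPM in the others, against 9.38 to 11.7 CPM in C57BL/6 wild types. At E15.5 it was at 0 in 2 of 4 FVBxBALB/c wild types. Rpl21 was at 6.43, 7.86, 26.6 and 40.8 CPM in the FVBxBALB/c wild types, 28.0 to 63.1 CPM in the Tg(Kat6b) embryos and 35.3 to 52.8 CPM in C57BL/6 of the same age, and at 5.58 to 6.85 CPM in all 4 FVBxBALB/c wild types at E15.5. Dynlt1b, a dynein light chain with near-identical neighbours, was at 6.62, 6.46, 3.00 and 0.44 CPM. Genes with so wide a range among the 4 embryos could differ far in mean level and not pass the test: Nr1h5 had a log2 fold change of -8.10 with an adjusted p of 0.087, and 1500004A13Rik had 2.55 with 0.213.

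**Figure D5:**
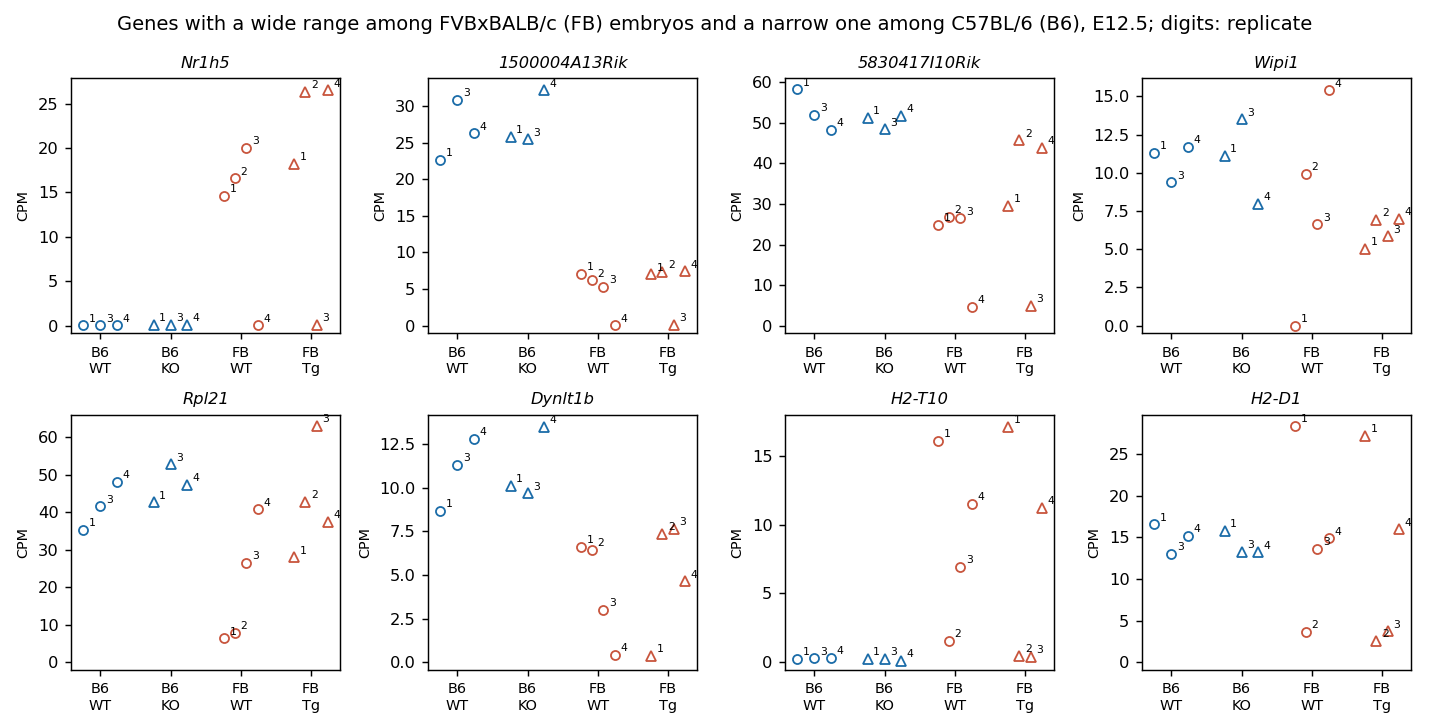
CPM of 8 genes in each E12.5 library of C57BL/6 wild type, C57BL/6 Kat6b knockout, FVBxBALB/c wild type and FVBxBALB/c Tg(Kat6b), with the replicate number beside each point. Nr1h5, 1500004A13Rik and 5830417I10Rik are low in wild-type replicate 4 and Tg(Kat6b) replicate 3, Wipi1 is at 0 in wild-type replicate 1, and H2-T10 and H2-D1 are low in wild-type replicate 2 and in Tg(Kat6b) replicates 2 and 3.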

How the data were processed

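The deposited files hold raw counts per gene, which the authors made with bcl2fastq and featureCounts on mm10, per the submitters' processing notes. For the aligner, annotation, counting settings and versions, nothing is given in the sources used here, so strand and the treatment of reads with several matches are unknown, and overlapping genes cannot be told apart. RNA came from RNeasy columns and TruSeq RNA v2 libraries with 66 bp paired ends, per the labels' protocols. Each file had 27179 rows. The 848 rows without a gene name (0.305 to 0.395% of counts in the 7 libraries) were left out. Genes were kept by filterByExpr (minimum count 10, minimum total 15) and scaled by TMM in edgeR 4.0.16 (R 4.3.3, limma 3.58.1). A robust quasi-likelihood fit of 2 groups (5 residual degrees of freedom) gave 2-sided F tests, adjusted by Benjamini-Hochberg, called below 0.05. SE is the absolute log2 fold change over the square root of F. Floors and counting intervals (95%) cover counting error only. The other E12.5 embryos and the 16 wild types of both ages (for E15.5 and the interaction) had fits of their own. DESeq2 1.42.0 was an alternative. Fits were tested on simulated data.

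Positions are RefSeq's for GRCm38, matched for 25275 of 26331 genes. Shared windows were counted between GENCODE M21 transcripts of non-overlapping loci, not between the genomes of the strains. Named genes were, among called genes without overlap and with a mean of at least 1 CPM, the 12 of largest change per direction, the 5 of smallest p per direction at 20 CPM or more, up to 4 called members of each list, the known strain genes, Kat6b, and the genes of smallest p for the age difference or of widest range. Others were added after their values were seen. The members, lists and rules were chosen with earlier results of these data known. Labels give separate embryos. Deviations of same-numbered replicates had correlations of -0.396, -0.007 and -0.104, so the numbers do not pair them. No 2 libraries agreed within sampling noise (chi-square per degree of freedom of 12.5 or more). Some genes are not reported here.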

Additional observations from a re-analysis of the deposited data

Results flagged for a closer look

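Among 69 named genes examined in the 4 FVBxBALB/c libraries, 2 had a value that stood apart by Dixon's gap test, a test that chance passes in about 1 of 20 groups. Orm2, an acute-phase glycoprotein, was at 4.61 CPM in replicate 2 against 1.62 to 1.95 CPM in the others, and Alad, a heme synthesis enzyme, was at 72.6 CPM in replicate 4 against 41.0 to 46.3 CPM. Replicate 4 also had the highest erythroid marker sum, at 10100 CPM. Whether that moved Alad was not tested.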

How the results depend on the processing

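For 59 called genes named by the rules, the direction was kept in every alternative in which they were tested. Other genes named above were not followed in this way. With 1 library left out, 0 (FVBxBALB/c replicate 4) to 25 (C57BL/6 replicate 4) of the 59 were no longer called. With the summed Y-linked level as a covariate 25 were not called, and with replicate number as a block 43 were not. The 203 calls (140 with a fold of 2 or more) became 860 (283) with DESeq2, 746 (247) in a fit of all E12.5 libraries, 2095 (397) in a fit of all 32, 74 (63) at an adjusted p below 0.01, and 61 (56) with the summed Y-linked level as a covariate. Other scalings, limma-voom, no filter and a stricter filter stayed within 1.5 times. With 1 library left out, the counts ran from 62 to 1266 (56 to 376), and without C57BL/6 replicate 1 and FVBxBALB/c replicate 4 together, chosen after seeing the data, they were 3841 (554). The replicate block left 20 (20) calls, 75% of them higher against 60.1%, but the numbers pair no embryos by the labels or by their deviations. The cause of these shifts was not tested.

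For the other E12.5 embryos, 2144 calls became 3350 with DESeq2, 40 with the replicate block and 474 to 2790 with 1 library left out. The 0 calls for the age difference became 9 with DESeq2, 1 with no filter, 5 in the fit of all libraries and 0 to 6 with 1 library left out. The 95 genes variable among FVBxBALB/c embryos ran from 17 to 372.

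Genes near 0 that were not called changed sign. With the Y-linked covariate, the log2 fold change was 0.0658 for Ide, 0.0098 for Fv1, 0.141 for Ahr and 0.0248 for Kat6b. With 1 library left out, it ran from -0.249 to 0.0825 for Ide, -0.381 to 0.000313 for Hc, -0.18 to 0.000146 for Fv1, -0.536 to 0.233 for Ahr and -0.155 to 0.0177 for Kat6b. With 3 and 4 embryos and a background that is also the sequencing batch, more embryos in mixed batches would be needed to separate them.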
